A study of Arabidopsis thaliana with 4 samples.

Results

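The ATG8 family of Arabidopsis thaliana consists of 9 genes, ATG8A to ATG8I, and its transcripts were compared between lux-6 and Col-0 seedlings. The members were taken by their AGI identifiers from 33602 gene identifiers, and all 9 were found and tested. Each genotype has 2 libraries, labelled as replicates 1 and 2, which the series calls biological replicates, and values are given in that order. Col-0 is the wild type. The lux-6 plants are homozygous mutants of LUX in the Col-0 background, and the labels do not give the kind of lesion. All seedlings were 10 days old, were grown in long days at 22 °C on MS medium with 3% sucrose, and were collected whole at zeitgeber time 12, that is 12 h after lights on. The series concerns leaf senescence and the evening complex, a repressor of transcription at dusk that LUX forms with ELF3 and ELF4.

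Autophagy delivers cytoplasm and organelles to the vacuole for breakdown, and it recycles nutrients in starved and senescing leaves. ATG8 is its membrane tag. The small ubiquitin-like protein is cut by the protease ATG4 behind a glycine near its end, activated by ATG7, passed to ATG3 and joined to phosphatidylethanolamine in the growing autophagosome membrane, where it also binds cargo receptors.

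The coding ends of the members are shown because they divide the family. Each line runs 5′ to 3′ from 10 codons before the glycine that is joined to the lipid to the stop codon, and the glycine codon is in capitals.
ATG8A: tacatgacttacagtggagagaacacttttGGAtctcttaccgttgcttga
ATG8B: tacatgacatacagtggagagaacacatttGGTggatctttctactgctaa
ATG8C: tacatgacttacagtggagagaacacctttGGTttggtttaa
ATG8D: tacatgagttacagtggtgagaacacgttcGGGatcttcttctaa
ATG8E: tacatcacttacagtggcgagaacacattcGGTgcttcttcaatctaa
ATG8F: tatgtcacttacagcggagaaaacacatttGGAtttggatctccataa
ATG8G: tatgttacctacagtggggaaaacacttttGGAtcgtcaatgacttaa
ATG8H: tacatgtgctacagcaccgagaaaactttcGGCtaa
ATG8I: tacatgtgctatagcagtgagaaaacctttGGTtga

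In ATG8A to ATG8G between 2 and 5 codons follow the glycine, which is the part that ATG4 removes. In ATG8H and ATG8I the stop codon follows directly, so the encoded glycine is exposed without a cut. These sequences were read from the RefSeq genome and annotation TAIR10.1, where ATG8C has a second transcript with another coding end. On the plus strand they lie at chr4:11656759-11656809 for ATG8A, chr1:22934212-22934253 for ATG8C, chr2:18625479-18625526 for ATG8E and chr3:22416924-22416971 for ATG8G. On the minus strand they lie at chr4:2328663-2328713 for ATG8B, chr2:2083211-2083255 for ATG8D, chr4:9306882-9306929 for ATG8F, chr3:1955219-1955254 for ATG8H and chr3:5274075-5274110 for ATG8I. Each stands in the last coding exon of its gene. Identity of the coding sequences was between 65.5% and 84.8% within ATG8A to ATG8G and between 56.9% and 64.4% from these to ATG8H or ATG8I. ATG8H and ATG8I were 68.4% identical. The closest members, ATG8A and ATG8B, share a run of 53 identical bases, so a read that lies within it cannot tell them apart.

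LUX (AT3G46640), the gene mutated in lux-6, measured 57.0 and 73.9 FPKM in the Col-0 libraries, against 34.8 and 35.3 FPKM in those of lux-6. FPKM are fragments scaled by gene length and library total. The log2 fold change was -0.87 with a standard error of 0.19, and limma did not call LUX (adjusted p = 0.187). It passed without Col-0 replicate 1 or with it as the lone Col-0 library, at log2 fold changes of -1.06 and -0.69. The library totals, worked back from the values, were between 10735709 and 11198704 fragments. Col-0 replicate 2 stood apart. Across genes, its log2 values correlated with those of Col-0 replicate 1 at r = 0.909, against r = 0.984 between the lux-6 libraries, and organelle genes made up 3.12% of its FPKM total against at most 0.101% in the others. Col-0 replicate 1 was closer to the lux-6 libraries, at r = 0.9548 and 0.9573, than to Col-0 replicate 2. Between Col-0 replicate 2 and the lux-6 libraries r was 0.8632 and 0.8635. Of the 3 green tissue markers limma called none. RBCS1A measured 10599 and 20766 FPKM in the Col-0 libraries, against 8714 and 8630 FPKM in those of lux-6, while LHCB2.1 (48.1 and 14.7, against 111 and 74.2 FPKM) and CAB3 (358 and 364, against 728 and 560.4 FPKM) lay higher in both lux-6 libraries. CASP1 of the root endodermis was at 18.8 to 30.8 FPKM, so shoots and roots were both represented. Of the other root markers, SCR was at 17.6 to 23.6 FPKM, while COBL9 at 1.16 to 2.07 FPKM and EXPA7 at 1.56 to 4.30 FPKM were low. The 3 seed genes of the marker list, SESA3, CRU1 and OLEO1, were all higher in both lux-6 libraries, with SESA3 reading 0.473 and 0.116 FPKM in wild type and 180 and 138 FPKM in the mutant. CRU1 read 136 and 9.77 FPKM in wild type and 680 and 757 FPKM in the mutant. OLEO1 read 16.1 and 3.64 FPKM in wild type and 80.3 and 91.6 FPKM in the mutant. Limma called SESA3 but not CRU1 or OLEO1 (adjusted p = 0.283 and 0.146). The part of these library differences in the ATG8 values was not tested, and each ATG8 fold change is given with and without Col-0 replicate 2.

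The family was expressed throughout and no member passed the test between genotypes. Limma called 0 of 9 members at an adjusted p of at most 0.05, where it called 0.291% of all 19592 genes tested. At an unadjusted p under 0.05 it had 0 of 9 members and 12.3% of all genes. With limma-voom on fragments the count was also 0, where 0.462% of all genes were called. All 9 fitted differences were above 0, as were 55.0% of all genes. Their median log2 fold change was 0.18, beside 0.05 over all genes tested. Without Col-0 replicate 1 these medians were 0.33 and 0.14. In 5 members the genotypes did not overlap, with both mutant libraries the higher, and in 4 they overlapped. The first of these patterns held for 26.1% of all genes. In whole seedlings, fewer cells of a type and less RNA per cell cannot be told apart.

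**Figure D1:**
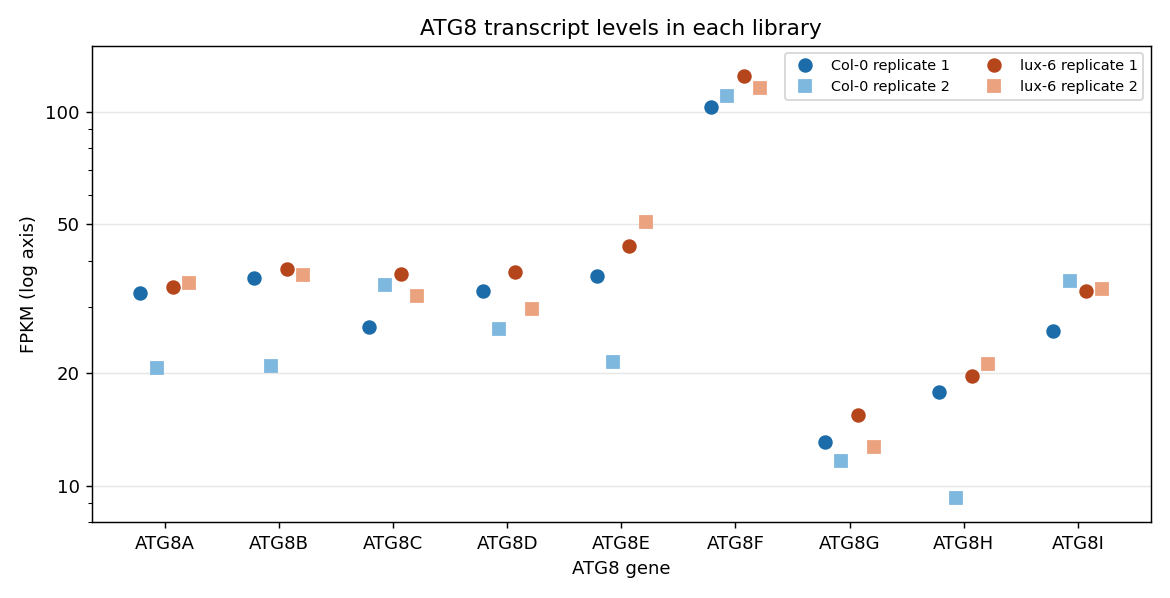
FPKM of each ATG8 gene on a log axis, 1 point per library, circles for replicate 1 and squares for replicate 2, without means. ATG8F lies above all other members in every library, and Col-0 replicate 2 is the lowest library for ATG8A, ATG8B, ATG8D, ATG8E, ATG8G and ATG8H.

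ATG8F (AT4G16520) was the most abundant member. It measured 103 and 110 FPKM in the Col-0 libraries, against 125 and 116 FPKM in those of lux-6. Its values in lux-6 were both higher than those in Col-0, and no other member exceeded 50.8 FPKM anywhere. Its log2 fold change was 0.17 with a standard error of 0.17 (adjusted p = 0.675), and its 95% interval ran from -0.26 to 0.60. Without Col-0 replicate 2 the fold change was 0.22.

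ATG8E (AT2G45170) had the largest fitted difference of the family. It measured 36.4 and 21.4 FPKM in the Col-0 libraries, against 43.8 and 50.8 FPKM in those of lux-6. Both lux-6 libraries were above both Col-0 libraries, but the gap within Col-0 was wider than the gap between Col-0 replicate 1 and lux-6 replicate 1. The means were 28.9 ± 10.6 and 47.3 ± 4.98 FPKM (SD, n = 2). The log2 fold change was 0.73 (SE 0.29, adjusted p = 0.409; 95% interval -0.01 to 1.48). Without Col-0 replicate 2 the log2 fold change was 0.37, and without Col-0 replicate 1 it was 1.10.

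ATG8A (AT4G21980) and ATG8B (AT4G04620), the closest pair by sequence, gave alike values. ATG8A measured 32.8 and 20.7 FPKM in the Col-0 libraries, against 34.0 and 34.8 FPKM in those of lux-6. ATG8B measured 36.0 and 20.9 FPKM in the Col-0 libraries, against 37.9 and 36.7 FPKM in those of lux-6. In both genes 3 libraries lay close together and Col-0 replicate 2 was the low one. Log2 fold changes of 0.39 and 0.43, with standard errors of 0.26 and 0.29, became 0.07 and 0.05 without Col-0 replicate 2. Neither passed (adjusted p = 0.561 and 0.563). Reads from the run they share could be counted for either gene or dropped, which was not tested.

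ATG8C (AT1G62040) and ATG8D (AT2G05630) showed no separation of the genotypes. ATG8C measured 26.6 and 34.4 FPKM in the Col-0 libraries, against 37.0 and 32.2 FPKM in those of lux-6. ATG8D measured 33.2 and 26.2 FPKM in the Col-0 libraries, against 37.4 and 29.7 FPKM in those of lux-6. Col-0 replicate 2 was the higher Col-0 library for ATG8C and the lower for ATG8D. Log2 fold changes were 0.18 and 0.17 (standard errors 0.20 and 0.21; adjusted p = 0.702 and 0.739), and 0.37 and 0.0039 without Col-0 replicate 2.

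ATG8G (AT3G60640) was the least abundant member on the mean of the 4 libraries. It measured 13.1 and 11.7 FPKM in the Col-0 libraries, against 15.5 and 12.7 FPKM in those of lux-6, and lux-6 replicate 2 lay between the Col-0 libraries. Its log2 fold change was 0.17 with a standard error of 0.19 (adjusted p = 0.713), and 0.09 without Col-0 replicate 2.

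The members with an exposed glycine, ATG8H and ATG8I, went apart from each other within Col-0. ATG8H (AT3G06420) measured 17.8 and 9.28 FPKM in the Col-0 libraries, against 19.7 and 21.2 FPKM in those of lux-6. ATG8I (AT3G15580) measured 25.9 and 35.3 FPKM in the Col-0 libraries, against 33.2 and 33.6 FPKM in those of lux-6. Col-0 replicate 2 was thus the lowest library for ATG8H and the highest for ATG8I. For ATG8H the log2 fold change was 0.62 (SE 0.32, adjusted p = 0.503), which was 0.19 without Col-0 replicate 2. ATG8I had 0.14 with a standard error of 0.20 (adjusted p = 0.777), and it turned to -0.075 without Col-0 replicate 1 and stood at 0.35 without Col-0 replicate 2.

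Fragment numbers could be worked back as whole numbers for ATG8D, ATG8G, ATG8H and ATG8I. The ATG8H values rest on 140 and 74 fragments in Col-0 and on 154 and 162 in lux-6, taking the annotated gene length. Exact Poisson 95% intervals, which cover counting error only, were 15.0 to 21.1 FPKM for Col-0 replicate 1 and 7.29 to 11.7 FPKM for replicate 2. For ATG8I, with 178 and 246 fragments in Col-0, they were 22.3 to 30.0 and 31.0 to 40.0 FPKM. For ATG8D, with 303 and 243 fragments, they overlapped, at 29.6 to 37.2 and 23.0 to 29.8 FPKM, as did those of ATG8G, with 186 and 168 fragments, at 11.3 to 15.2 and 9.97 to 13.6 FPKM. These intervals say nothing of the spread between seedlings or preparations. The ATG8I values fit whole fragments at a gene length of 623 bases, while the RefSeq transcript has 992. Those of ATG8G fit at 1286 bases, while the RefSeq transcript has 1117. They also fit at a second length, which would change the ATG8G fragment numbers and intervals. The levels of ATG8G and ATG8I beside other members thus depend on the gene model.

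Of the 9 members, 6 were lower in Col-0 replicate 2 than in replicate 1 and 3 were higher, namely ATG8C, ATG8F and ATG8I. Across all tested genes 61.8% were lower in replicate 2. The median absolute difference between the Col-0 libraries was 0.43 on the log2 scale over the members and 0.35 over all genes, and between the lux-6 libraries it was 0.11 and 0.16. Without Col-0 replicate 2 limma called none of the members at an adjusted p of at most 0.05, where it called 3.83% of all genes. Without Col-0 replicate 1 it called ATG8A, ATG8B, ATG8E and ATG8H higher (adjusted p = 0.0115, 0.00728, 0.00353 and 0.00496), where 33.8% of all genes were called. Those fits take the Col-0 level from a single library and their spread from the lux-6 libraries, which assumes that the lone library varies like them.

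**Figure D2:**
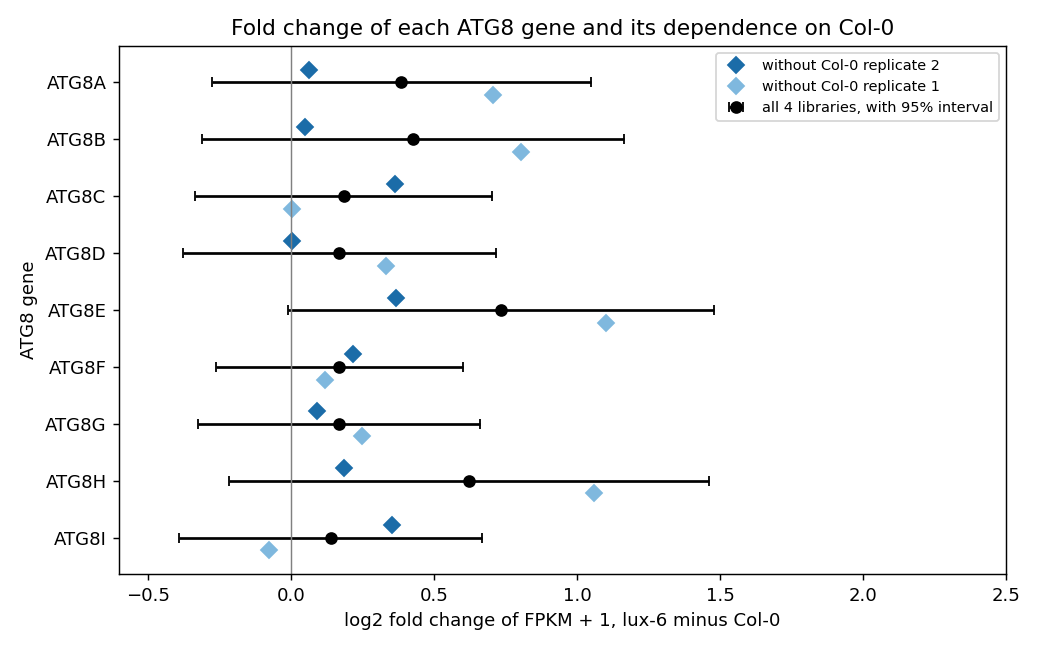
Log2 fold change of each ATG8 gene, lux-6 minus Col-0, with its 95% interval from all 4 libraries (black), and the fold changes without Col-0 replicate 2 (dark blue) or without Col-0 replicate 1 (light blue). Every interval includes 0, and the blue points of ATG8A, ATG8B, ATG8E and ATG8H lie farthest apart, for example 0.37 and 1.10 for ATG8E.

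The summed level of the family was 325 and 290.3 FPKM in Col-0 and 383 and 367 FPKM in lux-6. Both lux-6 sums were above both Col-0 sums. Mean sums of 308 ± 24.5 and 375 ± 11.2 FPKM (SD, n = 2) gave a ratio of 1.22, which became 1.16 when Col-0 replicate 2 was left out and 1.29 when replicate 1 was. Leaving ATG8F out of the sum gave a ratio of 1.27. With median-of-ratios scaling the ratio of the full sums was 1.17, and with organelle genes removed it was 1.25. No test is given for a sum over chosen genes.

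The make-up of the sum was alike in 3 libraries. ATG8F supplied 31.7% and 38.0% of the wild-type sums and 32.6% and 31.5% of the mutant sums. ATG8E supplied 11.2% and 7.39%, against 11.4% and 13.8% in the mutant. The order of levels by the mean of the 4 libraries was ATG8F, ATG8E, ATG8B, ATG8C, ATG8I, ATG8D, ATG8A, ATG8H and ATG8G. From ATG8E to ATG8A, at 38.1 to 30.6 FPKM, neighbours differed by less than their spread over libraries. ATG8H was below ATG8A in each library, and ATG8G was below ATG8H except in Col-0 replicate 2.

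**Figure D3:**
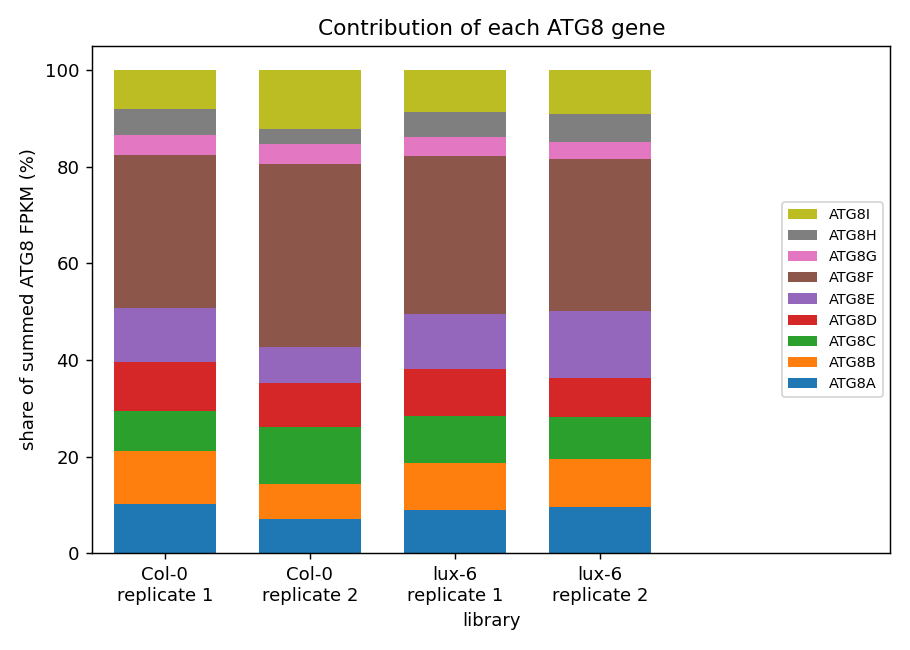
Share of each ATG8 gene in the summed ATG8 FPKM of each library, in percent, as stacked bars from 0 to 100. ATG8F is the largest part in each, at 38.0% in Col-0 replicate 2 and between 31.5% and 32.6% in the others.

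The other autophagy genes were taken from 6 lists of 56 genes, of which 55 were tested and ATG18E, at 0 to 0.248 FPKM, was not. Limma called 1 of the 55, WRKY33, higher in lux-6 and none lower, where it called 0.286% of all genes higher. Their median log2 fold change was 0.16, beside 0.18 for the ATG8 genes and 0.05 for all genes tested, and it was 0.02 without Col-0 replicate 2, where the ATG8 median was 0.19 and that of all genes -0.04. Without Col-0 replicate 1 the median of the 55 was 0.29. By list, the medians without Col-0 replicate 2 ran from -0.10 for upstream kinases and regulators to 0.20 for membrane supply and expansion. Both lux-6 libraries were above both Col-0 libraries for 18 and below them for 7, against 26.1% and 22.8% of all genes.

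Among the genes for joining ATG8 to lipid and ATG12 to ATG5, none of 9 passed. Their median was 0.27, which became 0.18 without Col-0 replicate 2 and was 0.29 without Col-0 replicate 1. ATG5 (AT5G17290), which receives ATG12, measured 13.0 and 8.74 FPKM in the Col-0 libraries, against 16.6 and 15.8 FPKM in those of lux-6 (adjusted p = 0.442). ATG16 (AT5G50230), which binds that conjugate, measured 10.6 and 9.53 FPKM in the Col-0 libraries, against 12.3 and 13.9 FPKM in those of lux-6 (adjusted p = 0.502). The lux-6 libraries were higher for both genes without reaching the threshold.

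Of the genes for the ATG1-ATG13 kinase complex, which starts autophagosome formation, none of 8 passed, and the median of 0.23 turned to -0.02 without Col-0 replicate 2 and was 0.44 without Col-0 replicate 1. ATG101 (AT5G66930), a subunit of that complex, measured 24.8 and 18.6 FPKM in the Col-0 libraries, against 28.2 and 26.3 FPKM in those of lux-6 (adjusted p = 0.546). ATG13A (AT3G49590), its regulatory subunit, measured 16.3 and 9.44 FPKM in the Col-0 libraries, against 15.8 and 19.6 FPKM in those of lux-6 (adjusted p = 0.549), with overlap between genotypes. ATG13B (AT3G18770) measured 5.23 and 4.46 FPKM in Col-0, against 4.28 and 4.09 FPKM in lux-6 (adjusted p = 0.738). Both lux-6 libraries were above both Col-0 libraries for 1 gene of the list, ATG101, and below them for 1, ATG13B. Of all genes, 26.1% and 22.8% had these patterns.

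Of the 6 genes for the phosphatidylinositol 3-kinase complex, which makes the lipid that marks the forming membrane, none passed, and the median of 0.20 turned to -0.05 without Col-0 replicate 2 and was 0.37 without Col-0 replicate 1. ATG14A (AT1G77890), a copy of the autophagy-specific subunit, measured 4.91 and 5.50 FPKM in the Col-0 libraries, against 9.30 and 11.2 FPKM in those of lux-6. The ATG14A log2 fold change, 0.86 (SE 0.20), did not pass (adjusted p = 0.208). The other copy, ATG14B (AT4G08540), was more abundant in each library and lay lower in both lux-6 libraries. It measured 19.0 and 21.4 FPKM in Col-0, against 17.3 and 16.1 FPKM in lux-6 (adjusted p = 0.558). ATG6 (AT3G61710), the Beclin homologue, measured 16.0 and 12.7 FPKM in the Col-0 libraries, against 17.5 and 18.1 FPKM in those of lux-6 (adjusted p = 0.547).

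None of the 9 tested genes of membrane supply and expansion passed. Their median was 0.28, which became 0.20 without Col-0 replicate 2 and was 0.35 without Col-0 replicate 1. ATG18F (AT5G54730), of the family of lipid-binding ATG18 proteins, measured 9.35 and 9.09 FPKM in the Col-0 libraries, against 17.7 and 15.9 FPKM in those of lux-6. The replicates were close within each genotype, and the log2 fold change was 0.80 with a standard error of 0.17 (adjusted p = 0.181). ATG18B (AT4G30510) measured 6.96 and 7.44 FPKM in the Col-0 libraries, against 11.2 and 9.41 FPKM in those of lux-6 (adjusted p = 0.434).

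Of 11 cargo receptors and ATG8-binding proteins none passed, and the median was 0.12, which became 0.01 when Col-0 replicate 2 was left out and 0.23 when replicate 1 was. TSPO (AT2G47770), a stress-induced membrane protein that is degraded through autophagy, measured 9.47 and 2.31 FPKM in the Col-0 libraries, against 29.9 and 20.3 FPKM in those of lux-6. Its log2 fold change was 2.12 with a standard error of 0.58 (adjusted p = 0.272), with limma. It was 2.96 and passed without Col-0 replicate 1 (adjusted p = 0.000788), and it was 1.29 and did not pass without Col-0 replicate 2 (adjusted p = 0.0518). With a replicate block limma called it (adjusted p = 0.0391), and under the other alternatives it did not. ATI1 (AT2G45980), an ATG8-interacting protein, measured 34.6 and 30.0 FPKM in the Col-0 libraries, against 42.7 and 44.5 FPKM in those of lux-6 (adjusted p = 0.408).

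Of 12 upstream kinases and regulators, WRKY33 (AT2G38470) rose. It encodes a defence transcription factor that binds ATG18A. It measured 22.6 and 16.8 FPKM in the Col-0 libraries, against 207 and 156 FPKM in those of lux-6. The log2 fold change was 3.14 (SE 0.24, adjusted p = 0.0330). The call was lost at a pseudocount of 0.1 (adjusted p = 0.0526), without a filter on low values (adjusted p = 0.0865), and without lux-6 replicate 1 or 2 (adjusted p = 0.443 and 0.413). HY5 (AT5G11260), a light-signalling factor that represses ATG genes, was named after its values were seen. It measured 43.1 and 34.1 FPKM in the Col-0 libraries, against 26.5 and 24.4 FPKM in those of lux-6 (adjusted p = 0.348). Both lux-6 libraries were below both Col-0 libraries for 3 genes of the list, HY5, KIN10 and HDA9, and above them for 2, WRKY33 and BZR1. Of all genes, 22.8% and 26.1% had these patterns. KIN10 (AT3G01090) measured 32.0 and 30.6 FPKM in Col-0, against 27.1 and 25.8 FPKM in lux-6 (adjusted p = 0.558). The median of the list was 0.02, which turned to -0.10 without Col-0 replicate 2 and was 0.14 without Col-0 replicate 1.

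**Figure D4:**
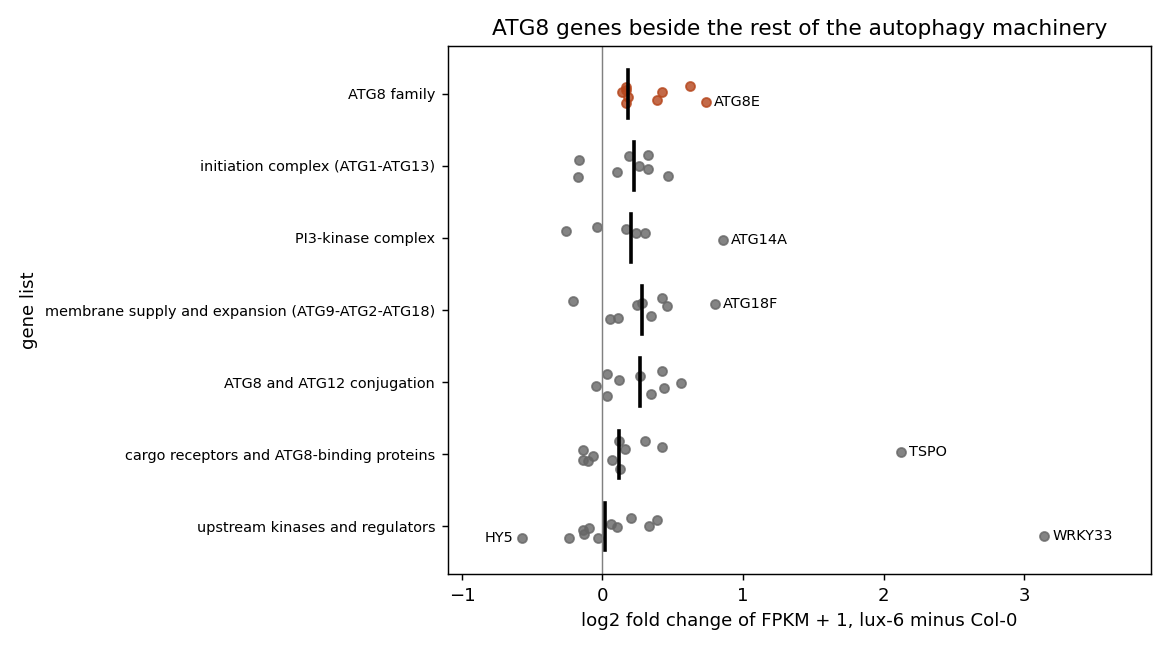
Log2 fold change, lux-6 minus Col-0, of each tested gene of the ATG8 family (red) and of 6 other autophagy lists (grey), with the median of each list as a black bar and random vertical scatter. The medians lie between 0.02 and 0.28, WRKY33 stands at 3.14 and TSPO at 2.12.

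Of the 55 genes, the 3 whose profile over the 4 libraries was most like the summed ATG8 level were ATG18D (AT3G56440), ATG6 and ATG12A (AT1G54210). Their Euclidean distances from it, on centred log2 values, were 0.06, 0.13 and 0.13, against a median of 0.36. ATG18D measured 2.47 and 2.26 FPKM in the Col-0 libraries, against 3.14 and 3.04 FPKM in those of lux-6, and ATG12A at 12.8 and 12.3 and at 16.5 and 14.2 FPKM. The log2 fold change of ATG18D was 0.28 at a pseudocount of 1 and 0.37 at a pseudocount of 0.1. The distances were taken at a pseudocount of 1 only. With 4 libraries the likeness of these profiles is a description.

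The 300 bases before each annotated gene start were searched on both strands for the LUX binding site, as GATACG or GATTCG, for the G-box CACGTG and for the evening element AAATATCT. A LUX binding site stood before 2 of 9 members, ATG8B and ATG8I, and before 14.3% of 26711 protein-coding genes. The windows of ATG8H and ATG8I overlap another annotated gene, so that of ATG8I is not purely intergenic. No member had a G-box or an evening element in the window, which 7.18% and 5.71% of genes hold. The stretch before ATG8B is shown because it holds both forms of the site, overlapping on opposite strands, at chr4:2330704-2330758 on the minus strand of TAIR10.1, with the letters of both in capitals.
ATG8B: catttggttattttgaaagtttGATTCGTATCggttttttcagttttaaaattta
ATG8B was among the members whose lux-6 libraries lay above Col-0 and ATG8I was not. A match of letters is a description, and binding was not measured.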

How the data were processed

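Messenger RNA of whole seedlings was measured in 2 Col-0 and 2 lux-6 libraries, grouped by title. Each deposited file holds 1 library in FPKM, which the authors computed, per the file headers. TopHat2 2.0.12 and TAIR10 appear in the submitters' processing notes. Which counter, gene lengths and strand setting were used was not stated in them. A linear model of log2(FPKM + 1) on genotype alone was fitted to the 19592 genes whose mean reached 1 FPKM, using limma 3.58.1 (R 4.3.3) and its mean-variance trend. All p-values are two-sided and, unless called unadjusted, adjusted by Benjamini-Hochberg over these genes, with a threshold of 0.05. Fold changes on this scale understate those of low genes. The smallest two-sided p of an exact permutation test is 0.333 with 2 against 2 libraries. The limma p-values weigh the genotype difference against the spread between libraries of a genotype. That spread is drawn towards the trend over all genes, with 2.88 prior against 2 residual degrees of freedom.

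Fragments were worked back from FPKM as whole numbers, within 0.002, over possible gene lengths, which succeeded for 20325 of 24532 genes above 0 and for 4 of the 9 members. ATG8G and ATG8H fitted 2 lengths each. For the other genes fragments were estimated from annotated lengths. The model and the search were tested on simulated data.

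The members and lists were chosen with earlier results of these data known. The text names all members, the genes past the test of each other list or otherwise the 2 with the smallest p, LUX, and the 3 genes of most alike profile. HY5, KIN10, HDA9, BZR1, ATG13B and ATG14B were named outside this rule, with their values known. Sequences are from RefSeq TAIR10.1, whose release differs from the one in the notes. Where several transcripts exist, the one with the coding length closest to the median of the family was used.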

Additional observations from a re-analysis of the deposited data

How the results depend on the processing

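The 9 ATG8 log2 fold changes kept their sign and stayed outside the threshold under a pseudocount of 0.1, no filter, a mean of at least 5 FPKM, median-of-ratios scaling, removal of organelle genes, a replicate block and limma-voom on fragments. Leaving out a library moved the count of members past the test from 0 to between 0 and 4 and ATG8I to between -0.075 and 0.35. Over all genes 56 were higher and 1 lower. The counts were 0 and 0 at a pseudocount of 0.1 and without a filter, where 2316 and 2680 genes had an unadjusted p under 0.05. They were 97 and 3 at a mean of at least 5 FPKM, 95 and 1 with median-of-ratios scaling, 95 and 3 without organelle genes, and 87 and 3 with limma-voom. With the replicate block they were 332 and 8. Leaving out a library gave 0 to 4244 higher and 0 to 2374 lower genes, and the LUX log2 fold change -1.06 to -0.69, past the threshold without either Col-0 library. The count of other autophagy genes called higher went from 1 to 0 at a pseudocount of 0.1 and without a filter, to 2 with the replicate block, and to between 0 and 13 with a library left out. The replicate numbers share no stated origin, and across genes the replicate 1 minus 2 differences of the genotypes correlated at r = -0.025. With 2 libraries per genotype, the upper 95% bounds of the ATG8 log2 fold changes ran from 0.60 for ATG8F to 1.48 for ATG8E, each the limit for that member alone. The causes of these dependences were not tested.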
